A study of Mus musculus with 5 samples.

Results

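The genes described here are 6 markers of the non-neuronal cells of the striatum: Slc1a3 and Aldh1l1 for astrocytes, Aif1 and Trem2 for microglia, and Tek and Slc2a1 for the endothelium of blood vessels. They were followed by bulk RNA sequencing in homogenised striatum of adult mice. Of the 5 libraries, 2 came from animals of the Adcy5R419W knock-in line (KI, replicates 1 and 3) and 3 from their wild-type littermates (WT, replicates 1, 2 and 3). Adcy5 encodes the main adenylyl cyclase of striatal neurons. The sources used here do not give zygosity, sex or exact age. No label ties a library to its own animal, so the p-values reflect differences among libraries that may be technical. The labels also call the samples striatal cells, while the design text speaks of homogenates. Each gene was read at the feature whose intervals overlap its GENCODE M21 (GRCm38) exons the most, because the counts fit GRCm38 gene positions although the features have GRCm39 coordinates. That placement is inferred from the counts, since the submitters' processing notes name GRCm39 alone and the build of the alignment is not stated, and every value below depends on it. By this rule 6 of 6 genes had a feature, out of 19986 GRCm38 genes with one and 53700 features in the files, and all 6 passed the filter on low counts (13665 features tested).

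Astrocytes clear glutamate and potassium from around synapses and supply neurons with metabolites. Microglia are the resident macrophages of the brain, and endothelial cells form the blood-brain barrier, through which glucose reaches the tissue. In a homogenate, fewer cells of a type and less RNA per cell cannot be told apart.

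Total counts lay between 7282807 and 7910584 in the KI libraries and between 6595105 and 7786173 in the WT libraries, where 3 counts correspond to 0.371 to 0.459 CPM (counts scaled to the TMM-adjusted library size). Penk, a striatal neuropeptide gene that marks the tissue, had 5296 and 5903 CPM in KI and 6722, 8271 and 7355 CPM in WT. KI replicate 3 stands apart in choroid plexus RNA: Ttr, the transthyretin gene of that epithelium, stood at 2093 CPM there and 28.0 CPM in KI replicate 1, against 41.8, 55.5 and 61.8 CPM in the WT libraries. Slc17a7, a gene of cortical glutamate neurons, had 96.1 and 22.0 CPM in KI and 73.5, 286.7 and 210.3 CPM in WT. The part of either in the values of the 6 genes was not tested.

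The features read only short stretches of these genes, from 5.56% of the exon bases of Aldh1l1 and Tek to 15.5% of those of Aif1. The longest coding stretch under the feature of 4 genes is printed to show which part of each messenger could be counted. These sequences are from the GENCODE M21 transcripts (GRCm38), 5′ to 3′ on the gene's own strand, and capitals mark bases that a second feature of the files also covers. They are exon 13 of Aldh1l1 at chr6:90576628-90576778 (+ strand, 151 bases), the coding part of exon 6 of Aif1 at chr17:35171112-35171193 (- strand, 82 bases), exon 15 of Tek at chr4:94853369-94853579 (+ strand, 211 bases) and the coding part of exon 10 of Slc2a1 at chr4:119136246-119136443 (+ strand, 198 bases).
Aldh1l1: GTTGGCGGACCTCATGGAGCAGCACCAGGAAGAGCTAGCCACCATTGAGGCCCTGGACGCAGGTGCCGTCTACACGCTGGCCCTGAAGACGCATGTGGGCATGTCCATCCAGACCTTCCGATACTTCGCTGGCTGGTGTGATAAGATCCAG
Aif1: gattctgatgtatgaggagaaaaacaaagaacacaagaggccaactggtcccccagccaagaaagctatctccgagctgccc
Tek: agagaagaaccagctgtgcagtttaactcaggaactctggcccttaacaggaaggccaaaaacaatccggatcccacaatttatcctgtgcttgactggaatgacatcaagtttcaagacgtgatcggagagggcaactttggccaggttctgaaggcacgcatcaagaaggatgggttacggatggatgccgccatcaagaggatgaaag
Slc2a1: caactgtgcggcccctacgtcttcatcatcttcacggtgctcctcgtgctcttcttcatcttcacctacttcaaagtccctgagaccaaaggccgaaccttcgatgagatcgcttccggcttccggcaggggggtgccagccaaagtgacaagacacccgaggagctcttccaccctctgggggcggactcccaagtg

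For the remaining bases the features say less about the mature messenger. Slc1a3 lies on chromosome 15 from 8634124 to 8710764 on the - strand, and its feature carries the gene's own label, shifted by 29484 bases. It covers 322 bases of the untranslated first exon of coding transcripts, 470 bases found only in a non-coding transcript, 5015 bases of intron and 2730 bases beyond the gene. Trem2 lies on chromosome 17 from 48346401 to 48354147 on the + strand, and the feature over it, labelled 1700122O11Rik, covers 691 bases of a retained-intron transcript and 0 bases of any coding transcript. Its counts are therefore not a measure of the coding Trem2 messenger. The feature over Tek, labelled Mysm1, holds 262 coding bases and 8684 bases of Tek introns. The feature over Aldh1l1 holds 151 coding bases, 100 bases found only in a non-coding transcript, 4160 bases of intron and 105 bases beyond the gene. The feature over Slc2a1, labelled Ybx1, holds 198 coding and 204 untranslated bases, 502 bases of intron and 1627 bases beyond the gene. It also covers 144 exon bases of the antisense gene Gm12868, with which its reads are pooled because strand was not used in counting. The features that carry the labels Aif1, Trem2 and Slc2a1 held 22, 0 and 3 counts over all 5 libraries, and the one labelled Tek lies over Ift74.

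**Figure D1:**
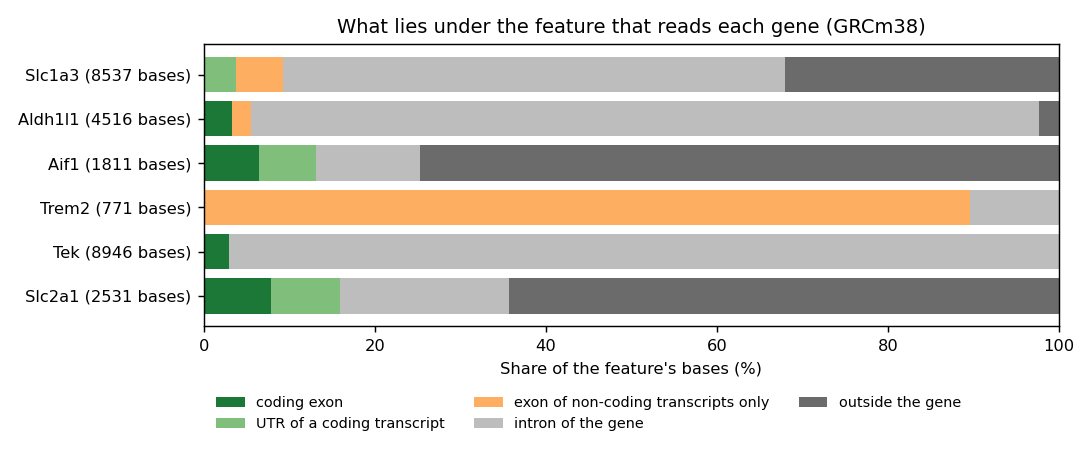
Horizontal bars give, for the feature that reads each gene, the share of its bases (x axis, %) that lie in coding exons, in untranslated parts of coding transcripts, in exons of non-coding transcripts only, in introns and outside the gene. Exons make up most of the feature only over Trem2, and there none of them is coding.

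In the KI striatum none of the 6 genes differed from WT past the threshold. In edgeR's quasi-likelihood test 0 of 6 had a Benjamini-Hochberg adjusted p under 0.05, where 0.102% of all tested features did (0.0439% higher and 0.0585% lower in KI), and 0 of 6 had an unadjusted p under 0.05, where 6.4% did. limma voom also called 0 of 6, and the DESeq2 Wald test 0 of the 3 to which it gave an adjusted p. Fold changes were below 0 for 5 genes and above 0 for Slc2a1, with a median log2 fold change of -0.27 against 0.00 over all tested features, of which 50.3% were lower in KI. In CPM, both KI libraries lay below all 3 WT libraries for Trem2 and Tek (11.1% of tested features did so) and above them for 0 of 6 (11.3%). Raw counts do not keep that order: for Tek, KI replicate 3 held 105 and WT replicate 1 held 100. For Trem2, KI replicate 3 and WT replicate 3 both held 35. The intervals below show how large a difference these libraries leave possible.

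**Figure D2:**
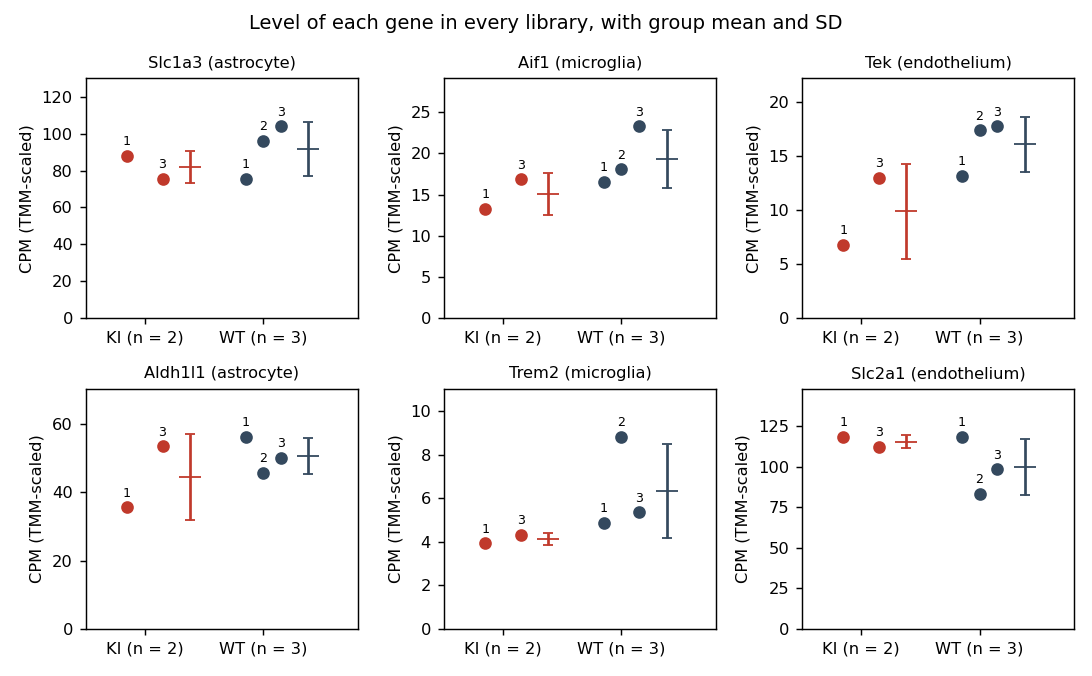
Each panel shows 1 gene, with CPM on the y axis (from 0), KI libraries in red at the left and WT libraries in dark blue at the right, labelled by replicate number, and the group mean with its SD. KI replicate 1 is the lowest library for Aldh1l1, Aif1, Trem2 and Tek, and the groups overlap for all genes but Trem2 and Tek.

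Slc1a3 encodes GLAST, the glutamate transporter of astrocytes and radial glia. Its level was 87.9 and 75.5 CPM in KI replicates 1 and 3 (649 and 610 counts) and 75.4, 96.0 and 104 CPM in WT replicates 1, 2 and 3 (574, 718 and 679 counts). The groups overlap, since WT replicate 1 lies level with the lower KI library. Means were 81.7 ± 8.77 CPM in KI (SD, n = 2) and 91.8 ± 14.7 CPM in WT (SD, n = 3), and the fitted log2 difference was -0.17 (SE 0.17, 95% interval -0.53 to 0.19, edgeR adjusted p = 0.9986). On the linear scale the interval runs from 0.694-fold to 1.14-fold, so a level in KI at or below 0.694 times that of WT lies outside it. Without KI replicate 3, or without WT replicate 3, the log2 value was -0.06. A feature inside the gene with no exon under it held 26 and 51 counts in KI and 34, 53 and 13 in WT over 2968 bases.

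Aldh1l1 encodes a folate-metabolising dehydrogenase that is widely used as a pan-astrocyte marker. It lies on chromosome 6 from 90486427 to 90600203. It stood at 35.5 and 53.4 CPM in the KI libraries (262 and 431 counts) and at 56.1, 45.6 and 50.1 CPM in the WT libraries (from 427, 341 and 327 counts). KI replicate 3 lies inside the WT range and KI replicate 1 below it. Means were 44.4 ± 12.6 CPM in KI (SD, n = 2) and 50.6 ± 5.27 CPM in WT (SD, n = 3), with a log2 fold change of -0.19 (SE 0.21, 95% interval -0.63 to 0.26, edgeR adjusted p = 0.9994). The direction rests on 1 library: without KI replicate 1 the value was 0.08, and without KI replicate 3 it was -0.51.

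Aldh1l1 exon 13, printed above in capitals, is covered a second time by the feature labelled Gm15756. That feature held 255 and 393 counts in KI and 419, 318 and 317 in WT (log2 difference of KI from WT -0.23, SE 0.21, edgeR adjusted p = 0.988). Both features count the fragments over that exon, so it is no second measurement. The 2 astrocyte genes did not keep one order across the WT libraries: WT replicate 1 had the lowest Slc1a3 and the highest Aldh1l1 level of all 5 libraries.

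Aif1 encodes IBA1, a calcium-binding actin bundler by which microglia are commonly stained. It lies on chromosome 17 from 35170991 to 35176068, and the feature labelled 1110038B12Rik covers 116 coding and 121 untranslated bases at its 3′ end, together with 1354 bases beyond the gene. It stood at 13.3 and 16.8 CPM in the KI libraries (98 and 136 counts) and at 16.5, 18.0 and 23.3 CPM in the WT libraries (from 126, 135 and 152 counts). The higher KI library lies just above the lowest WT library. Means were 15.1 ± 2.52 CPM in KI (SD, n = 2) and 19.3 ± 3.53 CPM in WT (SD, n = 3), with a log2 fold change of -0.35 (SE 0.29, 95% interval -0.98 to 0.27, edgeR adjusted p = 0.9709). Without WT replicate 3 it was -0.19, without KI replicate 1 it was -0.20, and without KI replicate 3 it was -0.53.

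A smaller feature inside the same stretch, labelled Gm25744, reads 61 bases at the very 3′ end of Aif1. It held 17 and 14 counts in the KI libraries and 38, 36 and 49 in the WT libraries, so that both KI libraries lie below all WT libraries. Its log2 fold change was -1.51 (SE 0.61, 95% interval -2.81 to -0.20, unadjusted p = 0.0272, edgeR adjusted p = 0.6724). Fragments over it are also counted in the larger feature. Another feature, labelled Hspa1b, over 96 bases at the other end of the gene held 10 and 9 counts in KI and 6, 10 and 2 in WT (log2 fold change 0.59, SE 1.32, edgeR adjusted p = 0.9994). The 3 features over Aif1 thus do not share a direction, and none passed the threshold.

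Trem2 encodes a lipid-sensing receptor of microglia that signals through the adaptor Tyrobp. The retained-intron stretch stood at 3.93 and 4.33 CPM in the KI libraries (29 and 35 counts) and at 4.86, 8.82 and 5.36 CPM in the WT libraries (from 37, 66 and 35 counts). Both KI libraries lie below all WT libraries in CPM, although KI replicate 3 and WT replicate 3 hold the same number of counts. Exact Poisson 95% intervals of the counts run from 19.4 to 41.7 and from 24.4 to 48.7 in KI, and from 26.1 to 51.0, from 51.0 to 84.0 and from 24.4 to 48.7 in WT, and cover counting error only. Means were 4.13 ± 0.286 CPM in KI (SD, n = 2) and 6.35 ± 2.16 CPM in WT (SD, n = 3), with a log2 fold change of -0.62 (SE 0.51, 95% interval -1.73 to 0.49, edgeR adjusted p = 0.9773). WT replicate 2 carries much of it, as the value without that library was -0.30, and under the replicate block, which leaves the same library without a partner, it was also -0.30. The interval runs from 0.302-fold to 1.41-fold, and it reflects the spread between libraries as well as the low counts.

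Tek encodes TIE2, the angiopoietin receptor of endothelial cells, and lies on chromosome 4 from 94739289 to 94874976 on the + strand. It stood at 6.78 and 13 CPM in the KI libraries (50 and 105 counts) and at 13.1, 17.4 and 17.8 CPM in the WT libraries (from 100, 130 and 116 counts). KI replicate 1 stands well below the rest, while KI replicate 3 falls short of WT replicate 1 by less than 1 CPM. KI replicate 3 holds more counts than WT replicate 1 (105 against 100), so the order of these libraries depends on the scaling. Means were 9.89 ± 4.40 CPM in KI (SD, n = 2) and 16.1 ± 2.56 CPM in WT (SD, n = 3).

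The log2 fold change of Tek was -0.70 (SE 0.36, 95% interval -1.47 to 0.07, unadjusted p = 0.0722, edgeR adjusted p = 0.8329), the largest in size among the 6 genes. It depends on which KI library is kept: without KI replicate 1 it was -0.31, and without KI replicate 3 it was -1.24 (edgeR adjusted p = 0.7629). Features lying inside Tek with no exon under them held 3 and 0 counts in KI and 1, 0 and 9 in WT over 1770 bases.

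Slc2a1 encodes GLUT1, the glucose transporter of the blood-brain barrier, which choroid plexus epithelium and, at lower levels, astrocytes also make. It lies on chromosome 4 from 119108711 to 119137983, and the feature over its last exon stood at 118 and 112 CPM in the KI libraries (872 and 908 counts) and at 118, 83.4 and 98.3 CPM in the WT libraries (from 899, 624 and 642 counts). WT replicate 1 lies level with KI replicate 1, and WT replicates 2 and 3 lie below both KI libraries. Means were 115 ± 4.04 CPM in KI (SD, n = 2) and 99.9 ± 17.4 CPM in WT (SD, n = 3), with a log2 fold change of 0.21 (SE 0.16, 95% interval -0.14 to 0.55, edgeR adjusted p = 0.9656). The interval runs from 0.910-fold to 1.46-fold. Without KI replicate 3, the library high in Ttr, the value was 0.24, and without WT replicate 2 it was 0.10.

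A second feature over Slc2a1, labelled Cldn19, covers 114 exon bases and held 10 and 40 counts in KI and 0, 13 and 3 in WT. The groups overlap there (log2 fold change 2.08, SE 1.27, edgeR adjusted p = 0.8938). The 2 endothelial genes therefore pointed in opposite directions, with both intervals including 0.

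**Figure D3:**
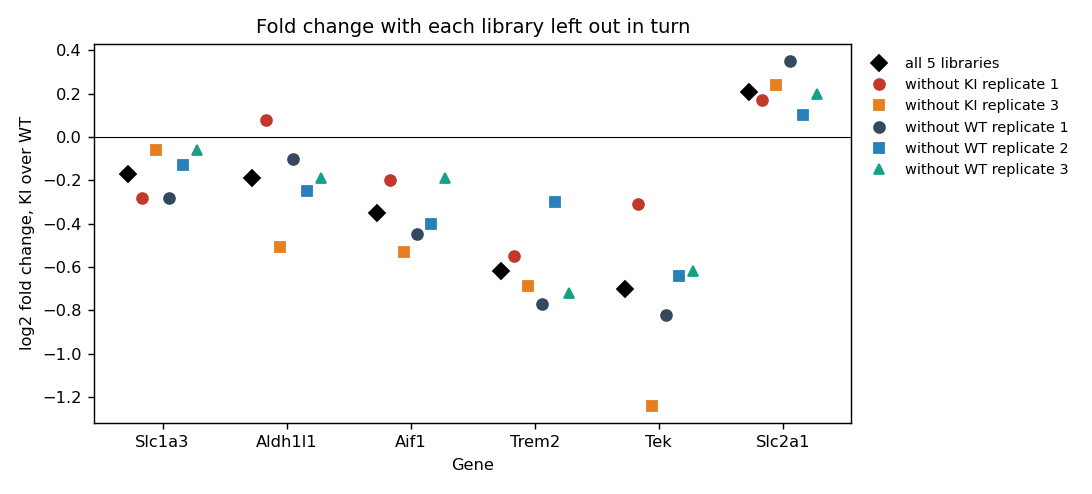
The y axis gives the log2 fold change of KI over WT for each gene (x axis) with all 5 libraries (black diamond) and with each library left out in turn. Tek moves between -1.24 and -0.31, Aldh1l1 crosses 0 without KI replicate 1, and Slc2a1 stays above 0 in all of these fits.

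Likeness of pattern was measured as the root mean square difference of mean-centred log2 CPM over the 5 libraries, with no test, since many genes match a profile of 5 points. Within its own list Slc1a3 was closest to Acsbg1 (0.175), Aldh1l1 to Cbs (0.171), Aif1 to Inpp5d (0.112), Trem2 to C1qc (0.237), Tek to Pecam1 (0.267) and Slc2a1 to Abcb1a (0.136). Cbs is read over 71 exon bases by a feature that also covers AC090881.1, Cryaa and Pknox1, so that match cannot be given to Cbs alone. Among all features over 1 protein-coding gene alone, the closest were Wdr48 and Orai2 to Slc1a3 (0.0428 and 0.0455) and Mast3 and Pdk3 to Aif1 (0.0661 and 0.0675). Dkk3 and Chst15 were closest to Trem2 (0.0641 and 0.103), Plec and Hjurp to Tek (0.0666 and 0.0711), and Cyfip1 and Nepro to Slc2a1 (0.0380 and 0.0392).

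The wider astrocyte list had 16 of its 28 genes under a tested feature, of which 6 were above 0 and 10 below and 0 passed the edgeR threshold. Over all tested features 50.3% were lower in KI and 0.102% passed. The median log2 fold change was -0.01 and the values ran from -0.19 to 0.30, with Aldh1l1 and Slc1a3 lowest. Glul, glutamine synthetase, stood at 1345 ± 44.2 CPM in KI and 1351 ± 115 CPM in WT (SD, n = 2 and 3; log2 fold change -0.01, 95% interval -0.22 to 0.20). Gpr37l1, an astrocyte receptor gene, stood at 286.8 ± 24.2 and 315.3 ± 41.1 CPM (-0.14, 95% interval -0.42 to 0.15), and Acsbg1, an acyl-CoA synthetase gene, at 229.8 ± 14.9 and 238.3 ± 7.92 CPM (-0.05, 95% interval -0.30 to 0.20) in KI and WT. Gfap, the astrocyte filament gene, had the smallest p of the list (0.30, SE 0.18, edgeR adjusted p = 0.884), but its feature also covers Ccdc103 and Fam187a. In none of the 16 were the groups separated. Among all tested features 22.4% showed such a separation, 11.3% with KI above WT and 11.1% with KI below.

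The microglia list had 17 of its 30 genes under a feature and 16 tested, of which 4 were above 0 and 12 below, with a median of -0.11 and 0 past the edgeR threshold. Here the shares over all tested features were again 50.3% lower and 0.102% past the threshold, and several of the 16 share their feature with other genes. Values ran from -0.62 for Trem2 to 0.45 for Selplg, an adhesion ligand gene whose feature is shared. Irf8, a transcription factor of microglia, stood at 10.7 and 15.5 CPM in KI and 18.0, 15.6 and 16.2 CPM in WT, with both KI libraries below the WT libraries (-0.34, SE 0.30, edgeR adjusted p = 0.9876). Of the 16 tested, 2 (Trem2 and Irf8) had both KI libraries below all WT libraries, as did 11.1% of all tested features. For 1 (Selplg) both lay above, as for 11.3% of all tested features. Ctss, the cathepsin S gene, stood at 91.7 and 136.6 CPM in KI and 134.4, 97.3 and 130.6 CPM in WT, with full overlap (-0.08, SE 0.19). Tyrobp is read over 6 bases by a feature shared with Hcst and Nfkbid (-0.33, SE 0.30), Olfml3 shares its feature with Hipk1 (0.01, SE 0.13) and Fcer1g with 4 other genes (-0.12, SE 0.12), so those values cannot be given to the microglial gene. Over the 8 tested genes alone on their feature the median was -0.12.

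The endothelium list had 16 of its 30 genes under a feature and 14 tested, of which 8 were above 0 and 6 below, with a median of 0.04 and 0 past the edgeR threshold. Among all tested features 50.3% were lower and 0.102% passed. Tek and Robo4, a guidance receptor of endothelial cells, stood at opposite ends. Of the 14 tested, 2 (Robo4 and Abcb1a) had both KI libraries above all WT libraries, as did 11.3% of all tested features. For 1 (Tek) both lay below in CPM, though not in raw counts, as for 11.1% of all tested features in CPM. Robo4 stood at 5.83 and 12.6 CPM in KI and 2.10, 3.74 and 3.67 CPM in WT, with both KI libraries above the WT libraries (1.54, SE 0.53, unadjusted p = 0.0118, edgeR adjusted p = 0.4978). Without KI replicate 3, the library high in Ttr, its value was 0.88 (unadjusted p = 0.254, edgeR adjusted p = 0.998), and without KI replicate 1 it was 1.99. Bsg, which encodes basigin and is abundant at the barrier and in other cells, stood at 781.7 ± 8.03 CPM in KI and 744.9 ± 74.6 CPM in WT (0.07, 95% interval -0.16 to 0.30). Esam (-0.20, SE 0.18) shares its feature with the neuronal gene Nrgn and 3 others, and Eng (-0.12, SE 0.14) with Cdk9 and Fpgs. The features over Emcn and Slco1a4 were near 0 in all libraries and were not tested, at most 0.678 and 0.535 CPM.

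**Figure D4:**
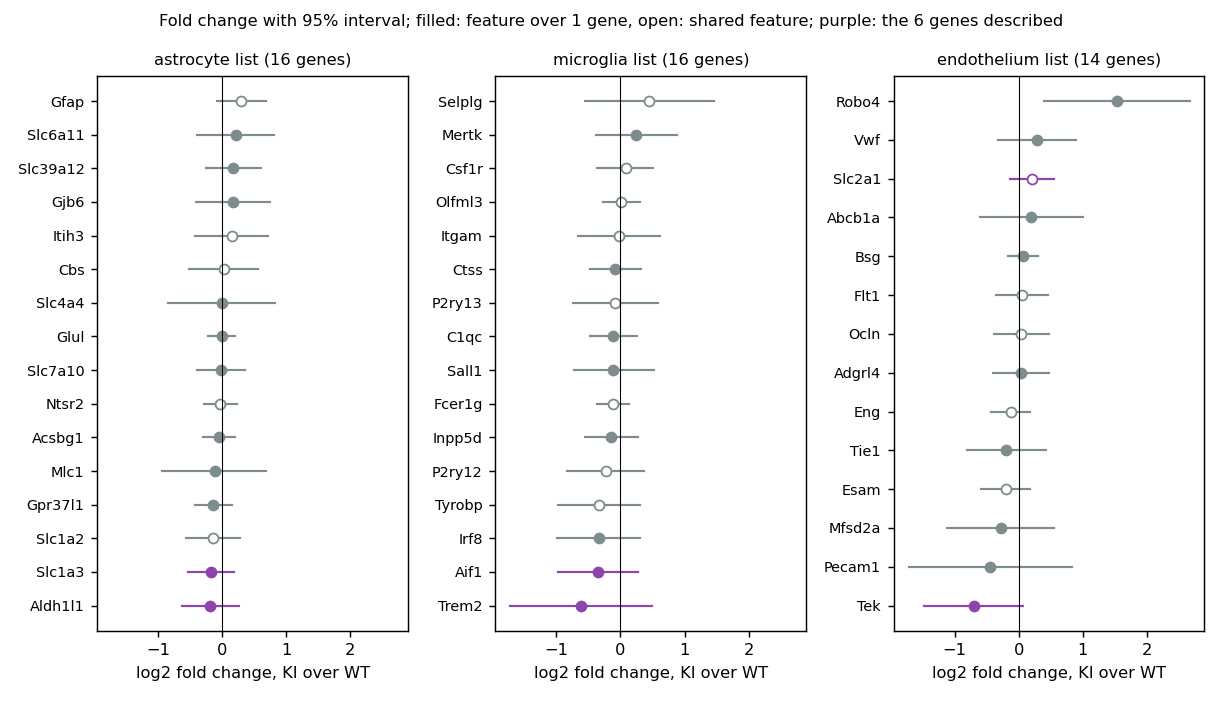
Points are log2 fold changes of KI over WT (x axis) with 95% intervals for the tested genes of the astrocyte, microglia and endothelium lists; filled points are features over 1 gene, open points features shared with another gene, and purple marks the 6 genes described. All intervals but that of Robo4 include 0, and that of Robo4 runs from 0.40 to 2.68.

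Lists of glial activation could be read only in part, and with 0.102% of all tested features past the threshold a count of 0 says little about them. Of 12 genes of disease-associated microglia 5 were tested, 2 above 0 and 3 below, with a median of -0.10 and 0 past the edgeR threshold. Cd63, a lysosomal tetraspanin gene, had the smallest p (0.14, SE 0.14) on a feature shared with Rdh5. Of 12 genes of reactive astrocytes 4 were tested, 2 above 0 and 2 below, with a median of -0.05 and 0 past the threshold. Cxcl10, a chemokine gene, had the smallest p (0.66, SE 0.41, edgeR adjusted p = 0.9026) on a feature shared with Art3, Cxcl9 and Sdad1.

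Summed over the features with 1 gene alone, the astrocyte and endothelium lists each rest mostly on a single gene: in KI replicate 1, Glul made up 1376 of 2354 CPM of the astrocyte sum and Bsg 787.4 of 921.4 CPM of the endothelial sum. Astrocyte features summed to 2354 and 2139 CPM in KI and 2489, 2135 and 2248 CPM in WT, microglia features to 292 and 359 CPM in KI and 348, 345 and 366 CPM in WT, and endothelial features to 921 and 928 CPM in KI and 943, 938 and 786 CPM in WT. With shared features included, the microglia list summed to 1319 and 1316 CPM in KI, below the 1366 to 1471 CPM in WT, and Aif1 and Trem2 are part of both microglia sums. Fcer1g, on a feature shared with other genes, made up 747.2 of the 1319 CPM in KI replicate 1. Oligodendrocyte features over 1 gene summed to 1474 and 1527 CPM in KI, below the 1567 to 2080 CPM in WT. Spiny projection neuron features over 1 gene summed to 1934 and 2103 CPM in KI and 1875, 2932 and 2639 CPM in WT, with overlap. The oligodendrocyte sum also rests mostly on a single gene: in KI replicate 1, Cnp made up 819.7 of the 1474 CPM. Tac1 made up 1030 of the 1934 CPM of the neuron sum in that library, but 1007 of 2932 CPM in WT replicate 2. Of the 4 tested genes in that neuron sum, 1 (Tac1) was above 0 and 3 were below. With shared features included, the neuron list summed to 11842 and 13266 CPM in KI, below the 14478 to 18906 CPM in WT, and the oligodendrocyte list to 5440 and 5552 CPM in KI, below the 5889 to 7349 CPM in WT. In KI replicate 1, Penk and Ppp1r1b, both on shared features, made up 5296 and 3973 of the 11842 CPM. Mbp, on a feature shared with Zfp236, made up 3925 of the 5440 CPM. Opalin, the oligodendrocyte gene with the smallest p, was read over 38 exon bases on a feature shared with Tll2 (-0.49, SE 0.18, edgeR adjusted p = 0.6). The part of these lists in the values of the 6 genes was not tested.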

How the data were processed

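The authors deposited unnormalised counts of fragments per feature, which featureCounts 2.0.1 made on Ensembl 103 (GRCm39) features, per the file headers. Pairs were counted as fragments and for every feature they overlap, and strand was not used although the labels name a stranded mRNA kit, so antisense and overlapping genes cannot be told apart. The aligner is not given in the sources used here. Feature intervals were laid over GENCODE M21 (GRCm38) exons with bedtools 2.31.1, without converting coordinates, and each gene was read at the feature with the largest overlap. After filterByExpr and TMM scaling, KI was tested against WT by edgeR 4.0.16's quasi-likelihood F-test (R 4.3.3), adjusted by Benjamini-Hochberg over all 13665 tested features, threshold 0.05. The common biological coefficient of variation was 29.8%. Chi-square tests gave 6.44 to 20.6 per degree of freedom between libraries, so none was a duplicate. Intervals (95%) are the log2 fold change plus or minus the t quantile times the SE, the fold change divided by the root of F. Alternatives were RLE scaling, total counts, no filter, DESeq2 1.42.0, limma 3.58.1 voom, a replicate block, each library left out, and other features. The 6 genes and all lists were chosen with earlier results of these data known. Genes named from the 3 cell-type lists are any with an adjusted p under 0.05, otherwise the 4 of smallest p, plus the 3 of highest CPM; from other lists, the 1 of smallest p. Selplg, Mrc1, Abcc9, Ndufa4l2, Anpep, Emcn, Slco1a4, Penk, Ttr, Foxj1, Cnp, Mbp and Tac1 were named after their values were seen. The genes closest in pattern to Aldh1l1 among all features are not reported here.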

Additional observations from a re-analysis of the deposited data

How the results depend on the processing

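None of the 6 genes passed the adjusted threshold in the 63 refits at the same feature, and 62 kept the direction. Aldh1l1 turned to 0.08 without KI replicate 1, and Aif1 to 0.59 at its second largest overlap. Leaving out 1 library gave log2 fold changes of -0.28 to -0.06 for Slc1a3, -0.51 to 0.08 for Aldh1l1, -0.53 to -0.19 for Aif1, -0.77 to -0.30 for Trem2, -1.24 to -0.31 for Tek and 0.10 to 0.35 for Slc2a1. The list medians then ran from -0.17 to 0.06 for astrocytes, -0.16 to -0.07 for microglia and -0.07 to 0.09 for endothelium, with -0.17 without KI replicate 1, and -0.06 and -0.07 without KI replicate 3 and WT replicate 3. Over all features the 14 calls became 183 with no filter, 154 with the replicate block, 128 with DESeq2, 52 with voom, 67 at a false discovery rate of 0.10 and 2 to 161 with 1 library left out (161 without WT replicate 1, 3 without WT replicate 2, 2 without WT replicate 3, 30 without KI replicate 1, 6 without KI replicate 3). Why these counts and medians moved, the cause, was not tested. A lone KI library is taken to have the spread of WT. Deviations of same-numbered libraries correlated at 0.135 (replicates 1) and 0.087 (replicates 3) over features, which does not show that the numbers pair the samples. With only 2 KI libraries, their deviations from the KI mean mirror each other, so these values are not independent checks. KI replicate 3 with WT replicate 1 thus gave -0.135, and KI replicate 1 with WT replicate 3 gave -0.087. DESeq2 gave no adjusted p to Aif1, Trem2 and Tek. Depth limits Trem2 most, at 29 to 35 counts in KI and 35 to 66 in WT.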

Other observations

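Single genes of cells that sit beside the endothelium had larger fold changes than the 6 genes, on few counts. Cd163, the haemoglobin scavenger receptor of perivascular macrophages, stood at 0.542 and 1.24 CPM in KI and 4.73, 16.3 and 14.4 CPM in WT, so that both KI libraries lie below all WT libraries. Its log2 fold change was -3.69 (SE 0.67, edgeR adjusted p = 0.0634), just short of the threshold, and was read over 405 of 5461 exon bases. It passed without a low-count filter, with the replicate block and without WT replicate 1. It did not pass in limma voom (adjusted p = 0.6591), and DESeq2 gave it no adjusted p. In edgeR it also did not pass with RLE scaling (adjusted p = 0.0652) or total counts (0.0743). Nor did it pass without WT replicate 2 (0.3018) or WT replicate 3 (0.4699). Its value was -3.24 without KI replicate 1 and -4.4 without KI replicate 3. Mrc1, another gene of these macrophages, stood at 3.52 and 0.495 CPM in KI and 0.919, 2.00 and 0.612 CPM in WT, with overlap.

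All 6 tested genes of pericytes and smooth muscle had fold changes above 0 in KI, with a median log2 fold change of 0.22, where 50.3% of all tested features were lower in KI, and 0 passed the edgeR threshold. For 5 of the 6 the value was 0.20 to 0.40 and smaller than its SE, and the features over Abcc9 and Ndufa4l2 are shared with other genes. Pdgfrb, the growth factor receptor that marks pericytes, stood at 9.21 and 11.6 CPM in KI and 4.20, 6.15 and 3.52 CPM in WT (1.17, SE 0.43, unadjusted p = 0.0185, edgeR adjusted p = 0.5953). Its values with 1 library left out ran from 0.99 (without KI replicate 3) to 1.43 (without WT replicate 2). The unadjusted edgeR p was 0.0352, 0.0124 and 0.0546 without WT replicates 1, 2 and 3. The feature over Anpep, of the same list, had 0 counts in all libraries. The vascular fibroblast list had 3 of 6 above 0, and its gene with the smallest p, Col1a1, stood at 34.1 and 10.4 CPM in KI and 38.2, 33.3 and 53.7 CPM in WT, with overlap. Prlr, the prolactin receptor gene of the choroid plexus list, stood at 26.4 and 51.4 CPM in KI and 14.8, 4.95 and 6.89 CPM in WT (2.12, SE 0.41, edgeR adjusted p = 0.0714). It passed in limma voom (adjusted p = 0.0327), with no filter, with the replicate block and without WT replicate 1. In edgeR it did not pass with RLE scaling (adjusted p = 0.0698) or total counts (0.0743). Nor did it pass without WT replicate 2 (0.2989) or WT replicate 3 (0.4819), and DESeq2 gave it no adjusted p. Its value was 2.52 without KI replicate 1 and 1.57 without KI replicate 3. The choroid plexus and ependyma list, on features mostly shared with other genes, summed to 818 and 2885 CPM in KI and 817, 881 and 868 CPM in WT. In KI replicate 3, Ttr made up 2093 of the 2885 CPM. The feature over Foxj1, which also covers Rnf157, held 754.1 and 714.4 CPM in KI replicates 1 and 3. In WT replicates 1, 2 and 3 it held 733.0, 812.1 and 790.4 CPM. That shared feature made up most of the list's sum in every library but KI replicate 3.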
